A study of Homo sapiens with 6 samples.

Results

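The mitochondrial genome carries 37 genes, and these were taken here as every gene whose symbol begins with MT-, 37 of the 60664 genes in the expression table. They comprise 13 mRNAs, 2 rRNAs and 22 tRNAs. RNA was sequenced from 67R cells, the ASK120067-resistant derivative of NCI-H1975, a human lung adenocarcinoma line that carries mutant EGFR. ASK120067 is an inhibitor of EGFR, a growth factor receptor kinase. All libraries come from this resistant line, so the drug-sensitive parent is not among the groups. In 3 libraries (siNC) the cells received a negative control siRNA and in the other 3 (siBCAT1) an siRNA against BCAT1, the cytosolic aminotransferase that removes the amino group from branched-chain amino acids. Nothing in the sources used here says that the 3 libraries of a group came from separate cultures, so p-values measure the spread between libraries, which may be technical. The time from transfection to harvest of these libraries was not given in the sources used here either.

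Each human mitochondrion holds many copies of a small circular genome, which is transcribed from both strands into long precursors. tRNAs sit between most of the other genes, and their excision by RNase P and ELAC2 releases the mRNAs and rRNAs. Most of these RNAs, though not all, are then polyadenylated. The proteins made from the 13 mRNAs are core subunits of respiratory complexes I, III, IV and V, and all other subunits come from nuclear genes. Steady-state levels of single transcripts therefore depend on transcription, on processing and on how long each RNA lasts.

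Values are TPM, a measure of transcript abundance whose values correct for gene length and for the size of the library, and summed to between 992512 and 995593 in each library. Read depth cannot be recovered from TPM and is unknown, and between 23152 and 25043 genes were above 0 in a library. The targeted gene was checked first. BCAT1 measured 42.7, 42.2 and 29.8 TPM in siNC and 8.78, 7.1 and 8.0 TPM in siBCAT1, a log2 fold change of -2.12 (SE 0.15, n = 3 per group, limma with Benjamini-Hochberg adjusted p = 0.000272). Of 6 epithelial markers all averaged at least 1 TPM. In siBCAT1 5 of them (KRT7, KRT8, KRT18, KRT19 and CDH1) were called lower, against 10.4% of all genes tested. The sixth, EPCAM, averaged 1.27 TPM in siNC and 2.33 TPM in siBCAT1 without overlap (log2 fold change 0.56, limma adjusted p = 0.0732). The summed level of the 6 was 2546 to 2948 TPM in siNC and 1647 to 1935 TPM in siBCAT1. None of 3 lung lineage markers (NKX2-1, NAPSA and SFTPB) averaged 1 TPM, with means of 0.03 to 0.21 TPM. Of 6 markers of other cell types, CD3E was listed at 0, PTPRC and PECAM1 were at or below 0.055 TPM, and COL1A1, COL1A2 and CD68 were above 1 TPM. COL1A1 was called lower and CD68 higher, where 10.4% of all genes tested were lower and 16.7% higher. The summed level of these 6 was 277 to 304 TPM in siNC and 246 to 295 TPM in siBCAT1. The part of these marker differences in the results on mitochondrial RNA was not tested. The libraries are bulk RNA, in which fewer cells and less RNA per cell cannot be told apart.

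The ends of the 13 coding regions are shown because some stop codons are complete only once the RNA is polyadenylated. The sequences are the last 15 bases of each annotated transcript (GENCODE release 29, GRCh38, chromosome M, 5′ to 3′ along the mRNA), with the stop codon, or the part of it that the genome encodes, in capitals. In 6 mRNAs the genome encodes only T or TA, and the added poly(A) tail completes the stop codon:
MT-ND1: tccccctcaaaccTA
MT-ND2: tactaataatcttaT
MT-CO3: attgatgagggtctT
MT-ND3: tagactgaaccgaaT
MT-ND4: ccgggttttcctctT
MT-CYB: tactcaaatgggccT
The other 7 have a complete stop codon, which in MT-CO1 and MT-ND6 is written AGA and AGG. The ends of MT-ATP8 and MT-ND4L lie inside mRNAs that run on into MT-ATP6 and MT-ND4:
MT-CO1: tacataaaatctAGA
MT-CO2: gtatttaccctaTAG
MT-ATP8: cccccacaatccTAG
MT-ATP6: cacgacaacacaTAA
MT-ND4L: ctactccaatgcTAA
MT-ND5: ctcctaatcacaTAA
MT-ND6: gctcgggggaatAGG

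Of the 6 mRNAs with an incomplete stop codon 4 were lower in siBCAT1 by the test given below (MT-ND1, MT-ND2, MT-ND3 and MT-ND4), and of the 7 with a complete one MT-ND5 alone was, while 10.4% of all genes tested were lower. This is a description of 13 genes that share a few precursors, and no test was made of it.

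Neighbouring reading frames on the same strand overlap in 3 places. MT-ATP8 and MT-ATP6 share 46 bases and MT-ND4L and MT-ND4 share 7, and each of these pairs is carried on 1 mRNA. MT-ATP6 and MT-CO3 share 1 base, at position 9207. The shared stretches of the first 2 pairs are shown because a read inside one belongs to both genes, with the start codon of the downstream frame and the stop codon of the upstream frame in capitals:
MT-ATP8/MT-ATP6 (chrM:8527-8572): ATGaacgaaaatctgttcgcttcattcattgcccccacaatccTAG
MT-ND4L/MT-ND4 (chrM:10760-10766): ATGcTAA
How the counting divided such reads is not given in the sources used here. MT-ATP8, at 207 bases, was listed 2.76 ± 0.127 times (SD, n = 3) as high per length as MT-ATP6 in siNC and 2.77 ± 0.129 times in siBCAT1. The same ratio of MT-ND4L to MT-ND4 was 2.41 ± 0.408 and 2.59 ± 0.159. Genes of 1 bicistronic mRNA thus had unequal TPM, by about the same mean ratio in both groups. Within siNC the ratio of MT-ND4L to MT-ND4 ran from 2.14 to 2.88.

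The mitochondrial mRNAs were among the genes with the highest TPM in these libraries. By mean TPM over the 6 libraries 5 of the 10 highest genes were mitochondrial, as were 9 of the highest 20 and 13 of the highest 50. MT-ATP8 ranked 1, MT-ND4L 2, MT-CO2 3 and MT-CO3 4, whereas MT-ND6 ranked lowest of the mRNAs, at 53. MT-ATP8 and MT-ND4L are the shortest of these coding regions. Each shares its mRNA with a gene that ranked lower, MT-ATP6 at 17 and MT-ND4 at 12. Their ranks are therefore ranks of TPM and not of RNA molecules. MT-RNR2, the large ribosomal RNA, ranked 11 and MT-RNR1, the small one, 144. The kit selects polyadenylated RNA, so all these RNAs are seen only as far as that step caught them. The order of the rRNAs and tRNAs against the mRNAs is not their order in the cell. The order among the mRNAs, MT-ND6 included, need not be either. All 22 tRNAs, 59 to 75 bases long, were listed at 0 in every library. Of 1623 other genes of at most 80 bases only 2 were above 0 in any library.

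**Figure D1:**
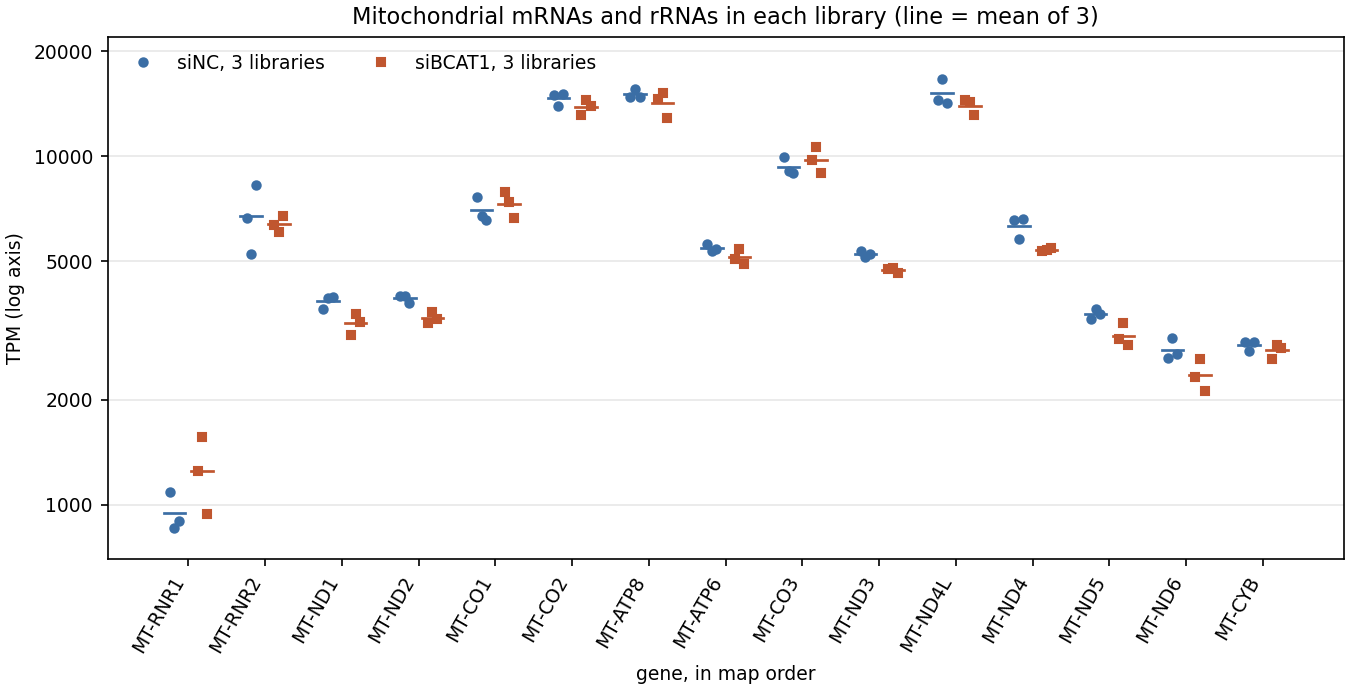
Level of each of the 13 mRNAs and 2 rRNAs in TPM (log axis) in each of the 3 siNC and 3 siBCAT1 libraries, in map order, with points for libraries and short lines for group means. Levels run from about 858 TPM for MT-RNR1 to 16690 TPM for MT-ND4L, and the groups do not overlap for MT-ND1 to MT-ND6 without MT-ND4L.

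Knockdown of BCAT1 was accompanied by slightly lower mRNAs of complex I, the NADH dehydrogenase that takes electrons into the respiratory chain. Of the 7 complex I mRNAs 5 fell, with changes of -10.1% to -14.6% in mean TPM, and the other 2 had negative fold changes that missed the threshold. The mRNAs of complexes III, IV and V gave 0 calls in either direction out of 6. Over the 13 mRNAs, 5 were lower (38.5%) and 0 higher at an adjusted p under 0.05 (limma on log2(TPM + 1), Benjamini-Hochberg over 14286 genes). Over all genes tested 10.4% were lower and 16.7% higher, 27.1% in either direction. At an unadjusted p under 0.05 the counts were 6 lower and 0 higher, against 2268 lower and 3398 higher of the 14286 genes tested. The median log2 fold change was -0.11 over the 13 mRNAs, -0.21 over the 7 of complex I and 0.04 over all genes tested. Without overlap between the groups, 6 of the 13 were lower and 0 higher, against 18.0% lower and 26.1% higher (44.1% in either direction) of all genes tested.

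The calls lie close to the threshold and rest on few libraries. With siNC replicate 1, siBCAT1 replicate 1 or siBCAT1 replicate 3 left out the number of mRNAs called lower was 0, without siNC replicate 2 it was 3, without siNC replicate 3 it was 1 and without siBCAT1 replicate 2 it was 5. It was also 0 without the filter on low values or without limma's trend in variance, 3 with median-ratio scaling and 1 (MT-ND4) with quantile normalization.

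MT-ND4, which encodes a proton-pumping core subunit in the membrane arm (chrM:10760-12137), measured 6536, 5789 and 6618 TPM in siNC. In siBCAT1 it measured 5344, 5386 and 5441 TPM. The siBCAT1 libraries lay close together and below the lowest siNC library. The log2 fold change was -0.23 (SE 0.05, limma adjusted p = 0.0197), from a mean of 6314 ± 457 to 5390 ± 48.3 TPM (SD, n = 3).

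MT-ND3, a small membrane subunit (chrM:10059-10404), measured 5353, 5141 and 5222 TPM in siNC and 4744, 4768 and 4624 TPM in siBCAT1. Its spread was the narrowest of the 5 in siNC, with a coefficient of variation of 2.04% there and 1.63% in siBCAT1, and every siBCAT1 library was below every siNC library. The log2 fold change was -0.15 (SE 0.03, limma adjusted p = 0.0118).

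MT-ND2 (chrM:4470-5511) encodes another pumping subunit and measured 3975, 3973 and 3789 TPM in siNC and 3327, 3579 and 3401 TPM in siBCAT1. The groups did not overlap, and the log2 fold change was -0.19 (SE 0.04, limma adjusted p = 0.0138). Of 14 alternative settings, MT-ND2 was called in 8, MT-ND3 and MT-ND4 in 7 each, and MT-ND1 and MT-ND5 in 5 each.

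MT-ND1 (chrM:3307-4262), the membrane subunit next to the quinone-binding site, measured 3637, 3926 and 3950 TPM in siNC against 3069, 3526 and 3337 TPM in siBCAT1. The highest siBCAT1 library was just below the lowest siNC library. The log2 fold change was -0.21 (SE 0.06, limma adjusted p = 0.0338).

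MT-ND5 (chrM:12337-14148), the pumping subunit at the far end of the membrane arm, measured 3417, 3652 and 3515 TPM in siNC and 2980, 3321 and 2867 TPM in siBCAT1. As for MT-ND1, the second siBCAT1 library came nearest to siNC without reaching it. The log2 fold change was -0.21 (SE 0.06, limma adjusted p = 0.0361).

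MT-ND6 (chrM:14149-14673) is the single mRNA of the genome that lies on the opposite strand, and its TPM were 2628, 3000 and 2708 in siNC and 2323, 2615 and 2117 in siBCAT1. The groups were separated by the smallest margin of the 6, and the log2 fold change of -0.24 (SE 0.08) missed the threshold at a limma adjusted p of 0.0691. It was past the threshold in 3 of 14 alternatives, one of them without siBCAT1 replicate 2 (log2 fold change -0.32, adjusted p = 0.0399). The log2 ratio of MT-ND6 to the 12 mRNAs of the other strand was -5.06 ± 0.10 in siNC and -5.21 ± 0.09 in siBCAT1 (SD, n = 3), a difference of -0.16 (2-sided exact permutation p = 0.2, Benjamini-Hochberg adjusted p = 0.28 over 7 such values). Whether the counting used the strand of the reads is not given in the sources used here. Without it, reads of MT-ND6 and of the RNA opposite it cannot be told apart. The level of this ratio also depends on how far the selection of polyadenylated RNA caught each mRNA.

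MT-ND4L (chrM:10470-10766), the remaining complex I mRNA, measured 14515, 16690 and 14166 TPM in siNC and 14476, 14300 and 13116 TPM in siBCAT1. The groups overlapped, with 1 high siNC library, and the log2 fold change of MT-ND4L was -0.11 (SE 0.07, limma adjusted p = 0.263). MT-ND4, carried on the same mRNA, was called lower. The ratio of MT-ND4L to MT-ND4 overlapped between the groups (2-sided exact permutation p = 0.5, unadjusted). The changes of the 2 genes were thus not shown to differ. The fold change of MT-ND4L missed the threshold in every setting. Its sign was negative in every setting but quantile normalization, where it was 0.0070.

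The mRNAs of complex IV, cytochrome c oxidase, which passes electrons to oxygen, lay on both sides of 0. MT-CO1 (chrM:5904-7445), the catalytic subunit, measured 7636, 6755 and 6567 TPM in siNC and 7866, 7380 and 6634 TPM in siBCAT1, a log2 fold change of 0.06 (SE 0.08, limma adjusted p = 0.593). MT-CO3 (chrM:9207-9990), a structural core subunit, measured 9947, 9049 and 8965 TPM against 9734, 10638 and 8940 TPM, a log2 fold change of 0.07 (SE 0.07, limma adjusted p = 0.517). For both genes the groups overlapped, and MT-CO3 came to 0 with quantile normalization. MT-CO2 (chrM:7586-8269), which accepts electrons from cytochrome c, ranged from 13969 to 15114 TPM in siNC and from 13101 to 14530 TPM in siBCAT1, with a log2 fold change of -0.09 (SE 0.05, limma adjusted p = 0.222).

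The single complex III mRNA, MT-CYB (chrM:14747-15887), encodes cytochrome b and ranged from 2768 to 2930 TPM in siNC and from 2626 to 2877 TPM in siBCAT1 (log2 fold change -0.05, limma adjusted p = 0.417). MT-ATP6 (chrM:8527-9207), the proton channel subunit of the ATP synthase, ranged from 5357 to 5595 and from 4916 to 5427 TPM (log2 fold change -0.09, limma adjusted p = 0.177). MT-ATP8 (chrM:8366-8572), its small partner, ranged from 14801 to 15530 and from 12905 to 15210 TPM (log2 fold change -0.08, limma adjusted p = 0.347). The groups overlapped for these 3 genes, and their sign turned positive with quantile normalization, at 0.04, 0.02 and 0.01.

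**Figure D2:**
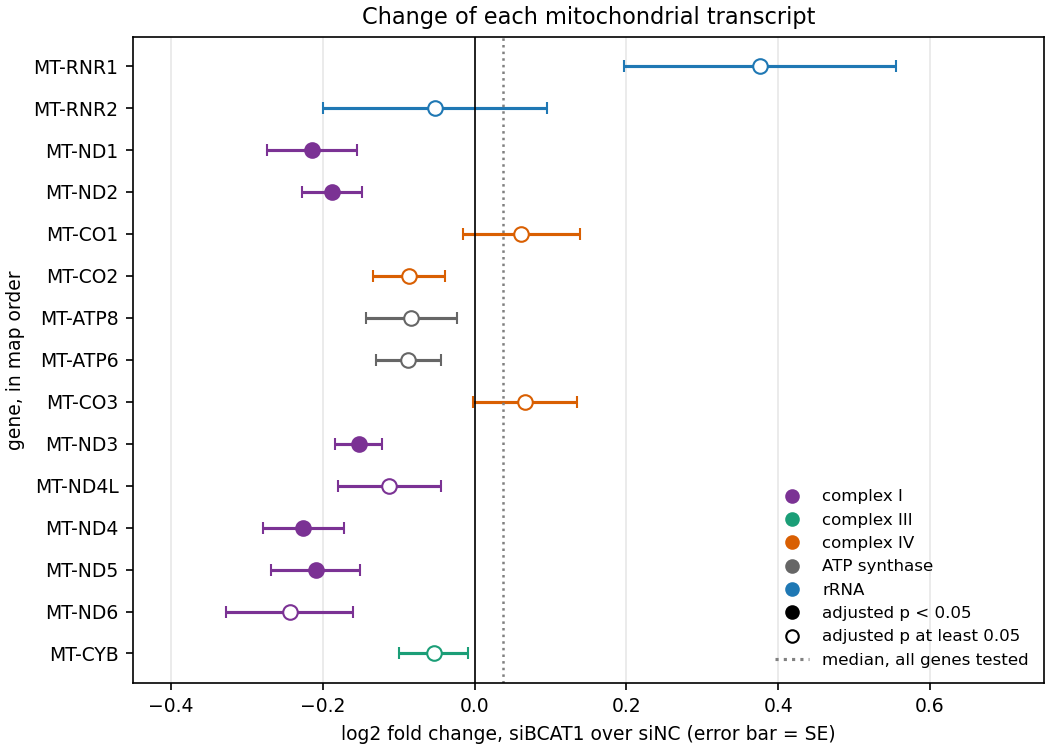
Log2 fold change (siBCAT1 over siNC) with its standard error for the 13 mRNAs and 2 rRNAs, in map order and coloured by complex, filled where the adjusted p was under 0.05, with the median of all tested genes (0.04) as a dotted line. The 7 complex I mRNAs lie between -0.24 and -0.11, while those of complexes III, IV and V lie between -0.09 and 0.07, and MT-ND4L, MT-CYB, MT-ATP6 and MT-ATP8 turn positive under quantile normalization.

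The difference between complexes was then measured within each library, after the single-gene values had been seen. The log2 ratio of the summed complex I mRNAs to the summed complex IV mRNAs was 0.30, 0.50 and 0.38 in siNC and 0.24, 0.20 and 0.24 in siBCAT1. All siBCAT1 libraries were below all siNC libraries, with a difference of -0.16 (2-sided exact permutation p = 0.1, adjusted p = 0.175). With 3 libraries against 3 an exact p cannot fall below 0.1. Without MT-ND4L and MT-ND6 the difference was -0.19, but this leaves just the 5 complex I mRNAs already called lower and so is no separate support. The summed complex I level went from 40734 ± 1247 to 36220 ± 1296 TPM, and the complex IV level was 30998 ± 1432 and 30903 ± 1554 TPM (SD, n = 3).

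Nuclear genes of the same complex were compared in the same way. The summed TPM of the nuclear complex I subunits was 9169 ± 236 in siNC and 9219 ± 88.3 in siBCAT1. The log2 ratio of mitochondrial to nuclear complex I mRNA was 2.17, 2.18 and 2.11 in siNC and 1.99, 2.02 and 1.91 in siBCAT1, without overlap (difference -0.18, 2-sided exact permutation p = 0.1, adjusted p = 0.175). This ratio and the one to complex IV both use the sum of all 7 complex I mRNAs. That sum includes the 5 already called lower, so neither ratio is separate support. Of 37 nuclear complex I genes tested 6 were higher (16.2%) and 3 lower (8.11%), close to the 16.7% and 10.4% of all genes tested, and their median log2 fold change was -0.02. NDUFA12, an accessory subunit, fell by 1.05 on the log2 scale (limma adjusted p = 0.000265). Over 75 nuclear genes of all the complexes 9 were higher (12%) and 5 lower (6.67%), both below the shares of all genes tested. After quantile normalization this split was 7 and 11, against 2042 higher and 1865 lower over all genes tested.

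Summed over the genome, mitochondrial RNA took 10.4%, 10.2% and 10.4% of the TPM in the siNC libraries and 9.73%, 10.2% and 9.33% in the siBCAT1 libraries. The means were 10.3% ± 0.107 and 9.74% ± 0.418 (SD, n = 3), a difference of -0.602 percentage points (2-sided exact permutation p = 0.1, adjusted p = 0.175). The groups did not overlap, and the second siBCAT1 library was again nearest to siNC. For the mRNAs alone the shares were 9.65%, 9.61% and 9.45% against 8.97%, 9.40% and 8.55%, a difference of -0.597 points with the same exact p of 0.1. Without siBCAT1 replicate 3 the differences were -0.396 points for all mitochondrial RNA and -0.388 points for the mRNAs. Weighted by gene length, so that a long transcript counts by its bases, the share of all mitochondrial RNA was 3.88% ± 0.164 and 3.62% ± 0.118, and these groups overlapped (exact p = 0.2). The length-weighted mRNA share was 3.33% ± 0.0475 and 3.09% ± 0.128 and did not overlap (exact p = 0.1).

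The ribosomal RNAs form the catalytic and decoding cores of the mitochondrial ribosome, which translates these mRNAs. Of the 2 rRNAs 0 were called in either direction by limma, and 0 passed an unadjusted p under 0.05. MT-RNR1 (chrM:648-1601) measured 1091, 858 and 900 TPM in siNC and 1250, 1565 and 940 TPM in siBCAT1, a log2 fold change of 0.38 (SE 0.18, limma adjusted p = 0.165). The siBCAT1 libraries were widely spread, with a coefficient of variation of 25.0%, and the third lay inside the siNC range. Without siBCAT1 replicate 3 the log2 fold change was 0.57 (limma adjusted p = 0.0449), and without siBCAT1 replicate 2 it was 0.20 (limma adjusted p = 0.416).

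MT-RNR2 (chrM:1671-3229) measured 6645, 5249 and 8291 TPM in siNC and 6365, 6041 and 6748 TPM in siBCAT1, a log2 fold change of -0.05 (SE 0.15, limma adjusted p = 0.827). All siBCAT1 libraries lay within the siNC range, whose coefficient of variation was 22.6%. In siBCAT1 this coefficient was 5.55% for MT-RNR2. Its median over the 260 genes that averaged 500 TPM or more was 4.38% in siNC and 3.65% in siBCAT1. Both rRNAs were above the median in both groups, but this is not particular to them. In siBCAT1 some mitochondrial mRNAs, among them MT-ND6 at 10.6%, varied more than MT-RNR2, and others, among them MT-ND4 at 0.897%, varied less. The ratio of MT-RNR2 to MT-RNR1, which come from 1 precursor, was 6.09, 6.12 and 9.21 in siNC and 5.09, 3.86 and 7.18 in siBCAT1. In both groups the third library had the highest ratio. The log2 ratio of rRNAs to mRNAs differed by 0.10 between the groups (exact permutation p = 0.7).

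The nuclear genome holds inserted copies of mitochondrial genes, and reads from one can be assigned to the other. Of 415 annotated copies 5 passed the filter, and 0 were called by limma in either direction (2 lower at an unadjusted p under 0.05). MTATP6P1 on chromosome 1 (chr1:633696-634376) matches MT-ATP6 over 681 bases with 10 edits, 98.5% identity. It was listed at 12.7% to 13.6% of the MT-ATP6 level in every library. Its log2 fold change was -0.16 (limma adjusted p = 0.0614). MTRNR2L1, 88.3% identical to MT-RNR2, was at 0.621% to 0.747% of that gene, and MTND6P3, 89.0% identical to MT-ND6, at 0.975% to 1.26%. The mitochondrial levels are uncertain by reads exchanged with such copies, and the size of this was not tested.

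Nuclear genes of mitochondrial DNA and RNA metabolism, biogenesis and protein quality control were higher more often than lower. Of 63 such genes 62 were tested, of which 16 rose (25.8%, against 16.7% of all genes tested). The number that fell was 0, against 10.4% of all genes tested (2 at an unadjusted p under 0.05). The median log2 fold change was 0.15. With quantile normalization the counts were 12 and 2, against 2042 higher and 1865 lower over all genes tested. Without siNC replicate 1 or siBCAT1 replicate 1 the number higher was 9. By role, 8 of 21 genes of RNA modification and ribosome assembly were higher, as were 2 of 10 of RNA processing, 2 of 8 of RNA stability, 1 of 8 of DNA replication, 1 of 9 of transcription and 2 of 6 of biogenesis and protein quality control.

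POLRMT, the mitochondrial RNA polymerase, rose from 75.3 ± 6.28 to 115 ± 9.38 TPM (log2 fold change 0.61, SE 0.09, limma adjusted p = 0.00297). The other factors needed to start and extend transcripts did not pass the test. TFAM, which bends and packages mitochondrial DNA, had a log2 fold change of 0.05 (limma adjusted p = 0.862), TFB2M, which opens the promoter, 0.32 (0.113), and the elongation factor TEFM -0.03 (0.921). TFAM turned negative under 4 alternatives and TEFM positive under 3. TFB2M passed without siNC replicate 2 (0.48, limma adjusted p = 0.00884).

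LRPPRC, which with SLIRP binds mitochondrial mRNAs and keeps them from decay, rose by 0.36 on the log2 scale (59.9 ± 7.01 to 76.9 ± 5.38 TPM, limma adjusted p = 0.0337) and was called in 7 of 14 alternatives. Leaving out siNC replicate 1 or 3 or siBCAT1 replicate 1 or 2 ended the call, at limma adjusted p-values of 0.106 to 0.115. SLIRP had a log2 fold change of 0.10 (limma adjusted p = 0.487). The largest rises of the list were LONP1, the matrix protease, from 61.7 ± 3.08 to 155 ± 16.3 TPM (1.32, limma adjusted p = 0.000229), RCC1L, a ribosome assembly factor, from 16.5 ± 1.45 to 42.0 ± 2.63 TPM (1.29, 0.000265), and TOP1MT, the mitochondrial topoisomerase, from 11.5 ± 1.67 to 23.3 ± 1.73 TPM (0.97, 0.00163).

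Nuclear genes were also taken by the symbols of mitochondrial ribosomal proteins (MRPL or MRPS with a number). Of these 78 genes 34 had higher RNA (43.6%, against 16.7% of all genes tested) and 3 lower (3.85%, against 10.4%). Their median log2 fold change was 0.21. With median-ratio scaling the counts were 21 and 3, and with quantile normalization 22 and 7. Over all genes tested these settings gave 2031 higher and 1690 lower, and 2042 higher and 1865 lower. Left-out libraries also moved the number higher, to 20 without siNC replicate 1, 21 without siNC replicate 3, 22 without siBCAT1 replicate 2 and 21 without siBCAT1 replicate 3. The mRNA of MRPS34, of the small subunit, rose by 0.88 on the log2 scale (limma adjusted p = 0.000997). That of MRPS36 fell by 1.01 (limma adjusted p = 0.000592). MRPS36 was counted here by its symbol, but its product, also known as KGD4, is a subunit of the alpha-ketoglutarate dehydrogenase complex.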

How the data were processed

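RNA from 67R cells was made into 3 siNC and 3 siBCAT1 libraries with a stranded mRNA kit. Per the labels and the submitters' processing notes the authors used fastp, HISAT2 and StringTie with GRCh38 to make the TPM values deposited in 1 table. Versions, annotation and strand setting are not given in the sources used here. The unit was read from the column sums.

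The 14286 genes that averaged 1 TPM or more were fitted on log2(TPM + 1) over all 6 libraries by limma 3.58.1 (R 4.3.3), with the variance moderated along a trend in mean level. P-values were adjusted over these genes by the Benjamini-Hochberg method, and an adjusted value under 0.05 was called. Fold changes are on the log2(TPM + 1) scale, which understates those of low genes. Shares and ratios per library were compared with a 2-sided exact permutation test over 20 relabellings, whose smallest p is 0.1. Lengths, overlaps and sequences came from GENCODE release 29.

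The members and lists were chosen with earlier results of these data known. Named genes were BCAT1, every mitochondrial gene that passed the filter, TFAM, POLRMT, TFB2M, TEFM, LRPPRC and SLIRP, the 3 largest called rises of the machinery list without overlap (no fall was called), the largest called rise and fall of the respiratory and ribosomal lists (1 of these is not reported here), and the 3 nuclear copies with the highest mean. Alternatives were another pseudocount (0.1), other filters (none, at least 5 TPM), scaling to genes outside the mitochondrial genome, median-ratio and quantile scaling, a replicate block, limma without trend, and each library left out. The complex I ratios were added after values were seen. Each library differed from every other in at least 14083 of the tested genes, so none was counted as a duplicate.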

Additional observations from a re-analysis of the deposited data

How the results depend on the processing

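BCAT1 was called lower in all 14 alternatives, with log2 fold changes of -2.28 to -2.03. The 5 mitochondrial mRNAs called lower became 0 without the filter on low values, 0 without limma's trend, 3 with median-ratio scaling and 1 with quantile normalization, and 0 to 5 when each library was left out. Quantile normalization turned MT-ND4L (0.0070), MT-ATP8 (0.0102), MT-ATP6 (0.0179), MT-CYB (0.0409) and TFAM (-0.0378) and brought MT-CO3 to 0, and the cause was not tested. With each library left out, MT-RNR2 ranged from -0.22 to 0.11, TFAM from -0.11 to 0.18 and TEFM from -0.24 to 0.11, the rRNAs called higher from 0 to 1, the rRNA share difference from -0.0844 to 0.0717 points and the log2 ratio of rRNAs to mRNAs from -0.054 to 0.25. The share differences stayed negative there, from -0.810 to -0.388 points for the mRNAs and from -0.813 to -0.396 points for all mitochondrial RNA. Machinery genes called lower numbered 2 with quantile normalization and 0 to 2 with a library left out, and those higher 9 to 19. Quantile normalization gave 11 nuclear respiratory chain genes lower and 7 ribosomal protein genes lower. Ribosomal protein genes called higher numbered 21 with median-ratio scaling, 22 with quantile normalization and 20 to 35 with a library left out. Nuclear copies called lower numbered 1 with median-ratio scaling, 2 with quantile normalization and 0 to 1 with a library left out. Over all genes the calls were 2382 higher and 1483 lower, and 2042 and 1865 with quantile normalization.

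Correlations of deviations from the group means were 0.0844, 0.1021 and 0.1238 for same-numbered libraries and -0.0814 to -0.0134 for the others. Every library thus correlated best with its own number. The labels do not say whether the numbers pair libraries. The main fit therefore had no block, and whether the libraries are paired was not tested. With the replicate block 6 mitochondrial mRNAs, 3 machinery genes, 5 ribosomal protein genes and 1 nuclear copy were lower, and over all genes 2773 were higher and 1795 lower.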
